A study of Mus musculus with 3 samples.

Results

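The Sfi1 region is a 150 kb window at the proximal end of mouse chromosome 11, from 3000000 to 3150000 in build mm9, and its members are all peaks of 2 Foxd3 peak lists that overlap it. There were 9 such peaks among 3406 in the HA list and 7 among 4569 in the Flag list, which is 16 of 7975 peaks in all. The window was chosen by the close packing of peaks in these same lists, so its peak number, spacing and widths are given as a description, without a test. Sfi1 lies at about 3.03 to 3.09 Mb of this chromosome in mm9. That approximate position is general knowledge and was not read from an annotation of this build, so no peak was placed in an exon, an intron or a UTR.

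Both lists come from mouse embryonic stem cells of the FH-Foxd3 line, which was derived from LF2 cells with a lentivirus that carries Foxd3 fused to Flag and HA epitopes and was selected with neomycin. The cells were cultured with fetal bovine serum and LIF and without feeder cells. The HA group is 1 chromatin immunoprecipitation with an anti-HA antibody, and the Flag group is 1 with an anti-Flag antibody. An input of total genomic DNA from the same line is the third sample and was not analysed here. All groups carry the added Foxd3, and the series design text puts its level near that of the endogenous protein. With 1 library per antibody there is no replicate, and the intervals below cover counting error only. The lists give positions without a height or a read count, so the depth behind a peak is unknown.

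Foxd3 is a forkhead transcription factor that binds enhancers in pluripotent cells and is also known for its role in the neural crest. Sfi1, as known from yeast and human, encodes a long protein that binds centrin at the centrosome or spindle pole. Mouse assemblies open each chromosome with an unsequenced block that stands for the centromere, and the Sfi1 region is the first sequence after that block. It is often named in lists of mouse intervals that give an excess of reads in any library. The input, in which such an excess would be counted, was not analysed here, so its part in the peaks below was not measured.

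In the gene table of another build, GRCm38.p6, Sfi1 is protein coding. The gene before it is Pisd-ps1, a transcribed pseudogene. The genes after it are Eif4enif1, which encodes a transport protein of the translation factor eIF4E, Drg1, which encodes a GTP-binding protein, and Patz1, which encodes a zinc finger transcription factor. Gm33862, Gm11400, Fau-ps2 and Gm51877 are annotated inside the span of Sfi1, and 2 of these, Gm11400 and Fau-ps2, are pseudogenes. These names give the neighbourhood and assign no peak to a gene.

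The HA peaks of the region formed a run of 30.7 kb, from 3069416 to 3100146. The run opened with a peak of 819 bp at 3069416 to 3070234, followed after 78 bp by one of 1835 bp at 3070313 to 3072147. Next came a peak of 1099 bp at 3075696 to 3076794, one of 1541 bp at 3078731 to 3080271 and one of 1937 bp at 3081075 to 3083011. These 5 peaks made the proximal part of the run, in which no gap was longer than 3548 bp.

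A single HA peak of 738 bp stood apart at 3089275 to 3090012, with 6.26 kb free before it and 7.52 kb after it. The run closed with 3 peaks set almost edge to edge, of 1175 bp at 3097531 to 3098705, 615 bp at 3098754 to 3099368 and 693 bp at 3099454 to 3100146. The closing peaks lay past the approximate end of Sfi1 given above. The entry for Sfi1 in another build is longer than that span, but how far the gene reaches in mm9 was not read. Whether these peaks lie inside the gene is therefore not known. They were separated from each other by 48 and 85 bp, so that they covered nearly all of a 2616 bp stretch.

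The Flag peaks formed a longer and more even run of 42.7 kb, from 3054527 to 3097186. It began nearer the centromere than the HA run, with a peak of 1287 bp at 3054527 to 3055813 and one of 1549 bp at 3063528 to 3065076. Then came peaks of 2373 bp at 3070291 to 3072663, 2664 bp at 3075805 to 3078468 and 1431 bp at 3078767 to 3080197. The last were a peak of 2148 bp at 3088492 to 3090639 and one of 1770 bp at 3095417 to 3097186. Every Flag peak but that last one fell inside the approximate span of Sfi1 or across its end.

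**Figure D1:**
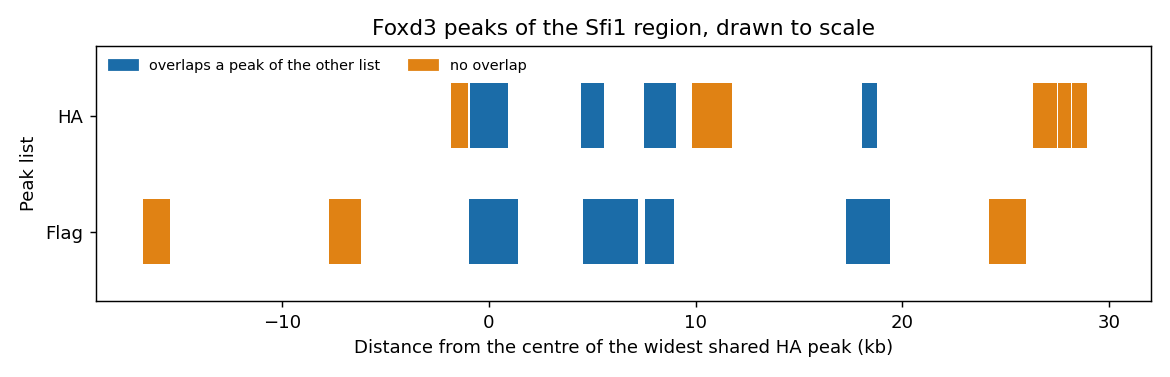
Peaks of the Sfi1 region in the HA list (upper row, 9 peaks) and the Flag list (lower row, 7 peaks), as boxes drawn to scale. The horizontal axis is the distance in kb from the centre of the widest HA peak that a Flag peak overlaps, and colour shows whether a peak overlaps one of the other list. The 4 overlapping sites lie in the middle of the region, and the outer peaks of each list, with the HA peak of 1937 bp between them, have no overlapping partner.

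Of the HA peaks of the region, 4 of 9 overlapped a Flag peak by at least 1 bp, or 44.4% (95% Clopper-Pearson interval 13.7 to 78.8), where 73.3% of the whole HA list did. Of the Flag peaks, 4 of 7 overlapped an HA peak, or 57.1% (18.4 to 90.1), where 54.7% of the whole Flag list did. With 9 and 7 peaks these intervals are wide, and the difference from the whole list was not tested. Neighbouring peaks of 1 library are not independent, so the intervals are if anything too narrow. The overlapping sites were the same 4 in both lists, each with 1 HA and 1 Flag peak.

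The most proximal overlapping site had an HA peak of 1835 bp lying wholly inside a Flag peak of 2373 bp. The Flag peak began 22 bp before the HA peak and ended 516 bp after it, and their centres were 247 bp apart. At the second site the HA peak measured 1099 bp and the Flag peak 2664 bp, with 990 bp in common. Both began within 109 bp of each other, but the Flag peak ran on 1674 bp past the end of the HA peak, which left the centres 891.5 bp apart.

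The third site matched most closely. Its HA peak of 1541 bp contained the whole Flag peak of 1431 bp, and the centres lay 19 bp apart. At the fourth site the HA peak of 738 bp lay inside a Flag peak of 2148 bp, with centres 78 bp apart. The HA peak had 0.344 times the width of the Flag peak at this site, against 0.413, 0.773 and 1.08 times at the others. The Flag peak was thus the wider one at 3 of 4 sites, and elsewhere it was the wider one in 48.5% of 2470 pairs of 1 HA and 1 Flag peak.

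By centre distance and by overlap length, the lists therefore agreed less at some of these sites than in most pairs elsewhere, without a test. A peak lay wholly inside its partner at 3 of the 4 sites and in 50.9% of pairs elsewhere. Nesting alone does not mean close agreement, since the fourth site was nested with an overlap of 34.36% of the longer peak. Centres were 200 bp or more apart at 2 of the 4 sites of the region, and in 7.13% of the 2470 pairs elsewhere. The overlap took up less than 40% of the longer peak at 2 of the 4 sites, and in 1.66% of pairs elsewhere. Both limits were set after these values had been seen, and the pairs of the region were wider. Their median widths were 1320 bp in HA and 2260.5 bp in Flag, against 564.5 and 547 bp elsewhere. A fixed limit of 200 bp takes no account of this. The distance of 891.5 bp was exceeded in 1 pair elsewhere, at 3217470 to 3222740 on chromosome 7, where an HA peak of 721 bp met a Flag peak of 5241 bp with centres 2290 bp apart. Of the 18.7 kb of the region covered by either list, 4.99 kb were covered by both, or 26.7%, and the corresponding value over the rest of the genome was 39.5%.

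The peaks without an overlapping partner were not all far from the other list. The HA peak of 819 bp ended 56 bp before a Flag peak, and the HA peak of 1937 bp began 877 bp after another. The closing HA peaks began 344, 1567 and 2267 bp after the end of the last Flag peak, the one of 1770 bp. That Flag peak was accordingly 344 bp from its nearest HA peak. The Flag peaks of 1549 and 1287 bp at the proximal end were 4.34 and 13.6 kb from any HA peak, and they were the members farthest from the other list.

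With a gap of up to 1 kb counted as a match, 7 of 9 HA peaks and 5 of 7 Flag peaks had a partner, where 74.1% of the whole HA list and 55.7% of the whole Flag list did. With an overlap of at least 50% of both peaks, 2 of 9 HA and 2 of 7 Flag members had one, where 69.7% and 52.0% of the whole lists did. The share of matching members in this region thus rested on the rule used. Joining peaks of 1 list that lay less than 1 kb apart turned the 9 HA peaks into 5 stretches, of which 4 met a Flag stretch. The 7 Flag peaks became 6 stretches, of which 3 met an HA stretch. The share of joined stretches that match over the whole lists is not given, so these counts cannot be set against it. The longest were an HA stretch of 4.28 kb at 3078731 to 3083011 and a Flag stretch of 4.39 kb at 3075805 to 3080197.

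Packing was closer in the HA list than in the Flag list. Gaps between neighbouring HA peaks of the region ran from 48 bp to 7.52 kb, with a median of 1369.5 bp over 8 gaps. Those between Flag peaks ran from 298 bp to 8.29 kb, with a median of 4995.5 bp over 6 gaps. Outside the region the median gap was 307 kb in the HA list and 219 kb in the Flag list. All 8 HA gaps and all 6 Flag gaps of the region were under 10 kb, where 7.62% of all HA gaps and 7.50% of all Flag gaps were. Of these, 4 HA gaps and 1 Flag gap were under 1 kb, against 1.92% and 2.04% of all gaps. Gaps under 100 bp made up 3 of the 8 HA gaps and 0.384% of all gaps in that list, so 3 of the 13 HA gaps this short lay here and 10 elsewhere. In the Flag list 0 of the 6 gaps in the region were under 100 bp, while 22 elsewhere were (0.484% of all).

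Peaks covered 10.5 kb of the window in the HA list and 13.2 kb in the Flag list, which is 6.97% and 8.81% of its length. Within the runs themselves they covered 34.0% of the HA run and 31.0% of the Flag run. In this window the HA list thus had more peaks but less covered sequence than the Flag list, since its members were narrower. Dividing the genome into windows of 150 kb, 9 HA peaks in the Sfi1 region compared with at most 6 in any other window, a number that 4 windows reached. For Flag, 3 other windows also held 7 peaks. By peak number per window, the region was therefore first alone for HA and tied for first for Flag. With peaks less than 10 kb apart linked within each list, the region held the fullest group of both, with 9 HA and 7 Flag peaks.

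**Figure D2:**
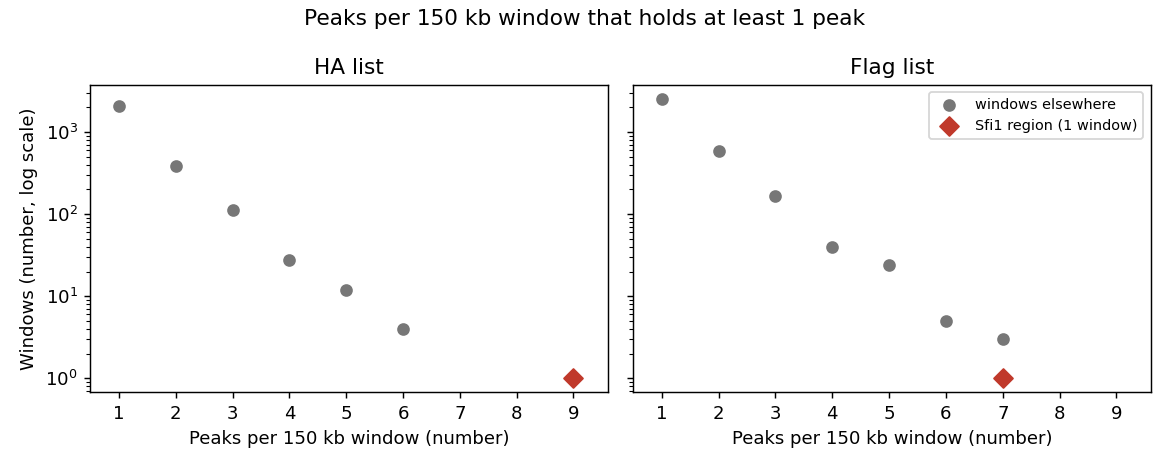
Number of 150 kb windows (vertical axis, log scale) by the peaks they hold (horizontal axis), for windows with at least 1 peak, in the HA list (left) and the Flag list (right). The Sfi1 region (diamond) holds 9 HA peaks, against at most 6 in other windows, and 7 Flag peaks, as do 3 other windows.

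Members of the region were wide for their lists. The HA members had a median width of 1099 bp and a range of 615 to 1937 bp, while the other 3397 HA peaks had a median of 547 bp (interquartile range 426 to 713 bp). The narrowest HA member was still wider than 61.1% of its list. The Flag members had a median of 1770 bp and a range of 1287 to 2664 bp, and the other 4562 Flag peaks had a median of 490 bp (369 to 665 bp). The narrowest Flag member was wider than 97.46% of its list. These widths come from the lists that chose the region and were not tested.

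The widest 5% of the HA list (5.02% of its peaks, with ties) held 4 of the 9 HA members. The widest 5% of the Flag list (5.01%) held 7 of the 7 Flag members. The widest 1% (1.03% of HA and 1.01% of Flag peaks, with ties) held 3 of 9 HA members and 4 of 7 Flag members. The 1937 bp HA peak was sixth in width in its list and the 1835 bp peak was ninth, with 5 and 8 wider peaks. The 2664 bp Flag peak had 2 wider peaks in its list. Overlapping HA members had a median of 1320 bp and the other HA members one of 819 bp, yet the widest HA member of all had no overlapping Flag peak. For Flag the medians were 2260.5 bp and 1549 bp.

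Although wide, the members did not stand at the head of the deposited lists, which was not particular to them. The lists do not say what their order means, but in both lists early lines tend to hold wider peaks: outside the region the median width was 691 bp in the first and 468 bp in the last decile of lines for HA, and 631.5 and 425 bp in these deciles for Flag. In the region 0 of 9 HA members and 0 of 7 Flag members stood in the first 10% of lines, which hold 9.98% of each list. The earliest were HA line 1203 of 3406 and Flag line 838 of 4569. Past the middle of the list stood 5 of 9 HA members and 4 of 7 Flag members.

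The closing HA peaks were at lines 2953, 3238 and 3151, all in the last 20% of the list. The Flag peak of 1549 bp was at line 4549, or 99.6% of the way down its list, although 56 Flag peaks were wider. Overlap with the other list went with no fixed place either. The most proximal overlapping site was at HA line 1511 and Flag line 3387, the second at lines 1203 and 1268, the third at lines 2195 and 2135 and the fourth at lines 2706 and 3524. The last of these was late in both lists.

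The widest members were also set beside equally wide peaks elsewhere. The 3 HA members of the widest 1% began at line 1511, and 71.9% of the 32 other HA peaks of that class stood before it. The median place of these 3 members was 44.6% of the way down the list, against 33.1% for the others. For Flag, the 4 members of the widest 1% began at line 1268, and 38.1% of the 42 other Flag peaks of that class stood before it. Those 4 had a median place of 68.7%, against 43.3% for the others. In HA the quartiles of the others were 8.71% and 46.7%, and those of the other Flag peaks were 14.6% and 66.6%, so the HA median of the region lay inside that range and the Flag median just above it. These differences were not tested.

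**Figure D3:**
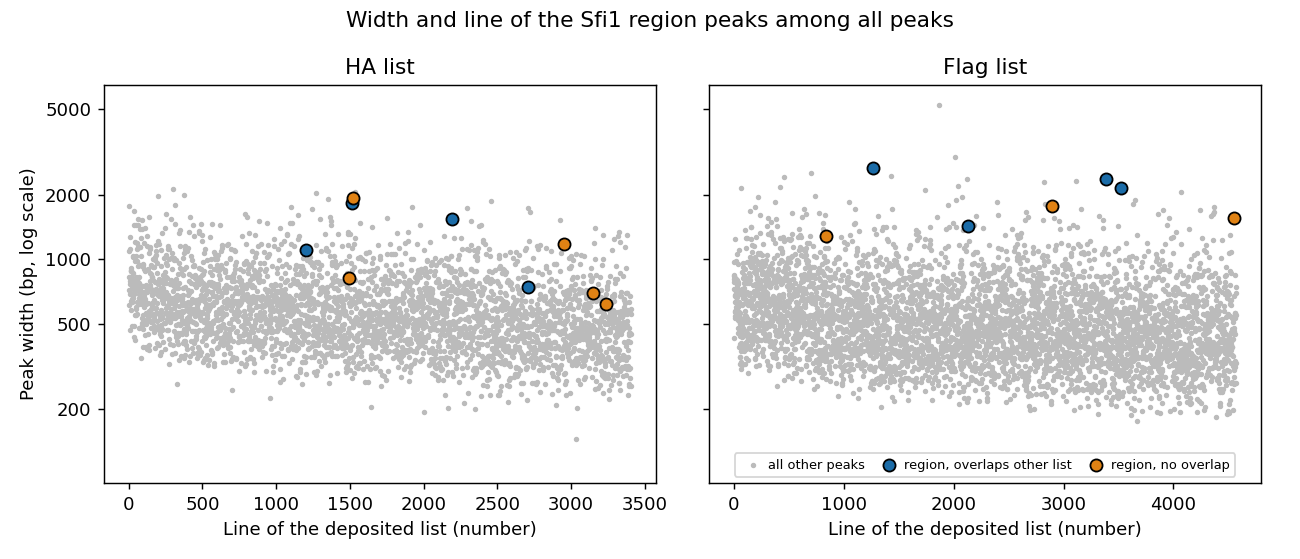
Width of each peak in bp (vertical axis, log scale) against its line in the deposited list (horizontal axis), for the HA list (left) and the Flag list (right), with members of the Sfi1 region as large points. The 7 Flag members are all wider than 1200 bp but lie from line 838 to line 4549, and the 9 HA members lie from line 1203 to line 3238.

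On the distal side the lists were empty for 137 kb in HA and 140 kb in Flag. Then both had a peak at the same place, at 3237361 to 3238138 in HA and 3237314 to 3238121 in Flag. It measured 778 bp in HA and 808 bp in Flag, narrower than the median member of either list, and it stood at HA line 29 and Flag line 104. The following site was shared as well, at 3280347 to 3281059 in HA and 3280158 to 3280838 in Flag, with widths of 713 and 681 bp, and it stood at HA line 955 and Flag line 1532. The HA widths of both sites were within the range of the HA members, and the Flag widths were below that of every Flag member. Both HA lines came before every HA member, while Flag line 1532 came after the Flag members at lines 838 and 1268. On the proximal side, neither list had a peak between 3000000 and its first member.

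Most other chromosome starts held few peaks or 0. In the first 500 kb after 3 Mb, chromosome 11 had 11 HA and 9 Flag peaks, the 16 members and the 2 sites just described. The other 19 chromosomes together had 12 HA peaks on 5 chromosomes and 14 Flag peaks on 7. Chromosome 7 accounted for 6 of the HA and 7 of the Flag peaks, and 14 chromosomes had 0 HA peaks there.

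Linking peaks of both lists that lay less than 10 kb apart put all 16 members into 1 group of 45.6 kb. The next fullest groups were one of 11 peaks (5 HA and 6 Flag) at 3193108 to 3222740 on chromosome 7 and one of 8 (4 HA and 4 Flag) at 76393425 to 76404881 on chromosome 14. After these, 6 groups tied with 7 peaks each. Peaks covered 40.9% of the span of the Sfi1 group, 36.4% on chromosome 7, 22.4% on chromosome 14 and 17.7 to 67.0% in the tied groups. The Sfi1 group was thus first in peak number but not in closeness, as a tied group on chromosome 3 held 7 peaks in 5.8 kb. In the Sfi1 region 4 of 9 HA and 4 of 7 Flag peaks overlapped, against 4 of 5 and 4 of 6 on chromosome 7, 4 of 4 and 4 of 4 on chromosome 14, and 19 of 21 and 18 of 21 over the 6 tied groups. The bases covered by both lists were 26.7% of those covered by either in the Sfi1 region and 25.2% on chromosome 7. The value on chromosome 7 includes 1 Flag peak of 5241 bp whose HA partner measured 721 bp, so most of that peak was covered by Flag alone. The share was 64.5% on chromosome 14 and 44.3 to 74.4% in the tied groups.

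Members of the Sfi1 region were also the wider ones at the median, with 1099 bp in the HA list and 1770 bp in the Flag list, against 771 and 1012.5 bp on chromosome 7 and 462 and 551 bp on chromosome 14. The tied groups had medians of 535 to 891 bp for HA and 677 to 1093 bp for Flag. Place in the lists varied across groups. The median line of the Sfi1 members was 64.4% of the way down the HA list and 63.3% down the Flag list. It was 51.6 and 59.2% on chromosome 7 and 48.2 and 66.3% on chromosome 14, while the tied groups ranged over 52.5 to 76.6% and 36.5 to 71.3%. All groups were picked as the fullest in these lists, so these are descriptions and no test was made.

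**Figure D4:**
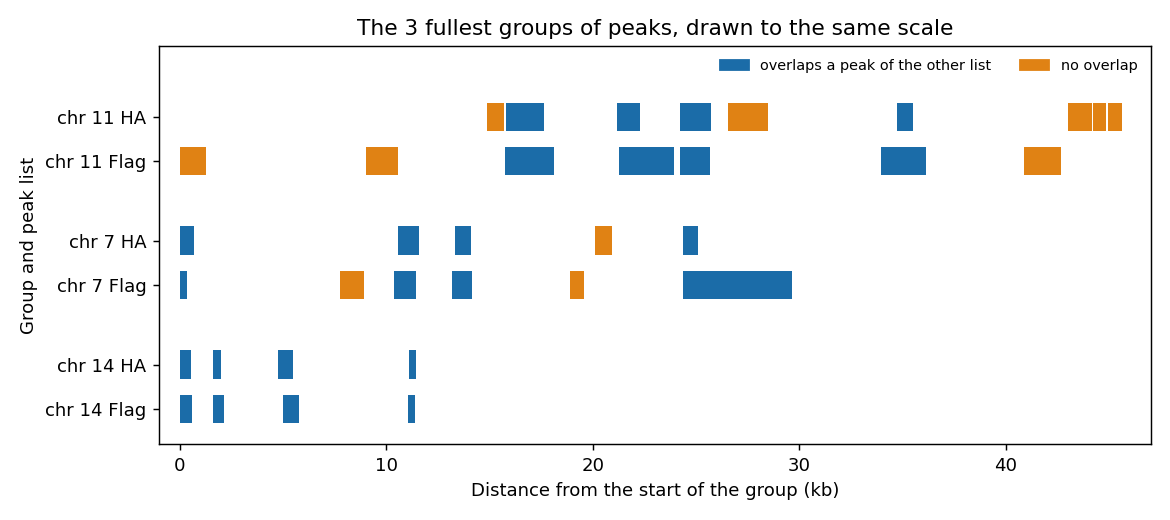
The 3 groups with the most peaks over both lists, on chromosomes 11 (the Sfi1 region), 7 and 14, drawn to the same scale as boxes along the distance in kb from the start of each group, with HA above Flag. Colour shows overlap with the other list, which 4 of 9 HA peaks have on chromosome 11, 4 of 5 on chromosome 7 and 4 of 4 on chromosome 14.

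Whether Foxd3 occupies any of these sites cannot be read from the lists. The lists hold no peak height, the input was not analysed here, and both antibodies pull the same fusion protein from the same line.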

How the data were processed

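The authors deposited 1 peak list per antibody, with 3 columns (chromosome, start and end) and no value per peak. Positions are on mm9, as the submitters' processing notes record. How reads were aligned and peaks called, and whether the input was used, is not stated in the sources at hand. If the caller split broad enrichment into several peaks, or merged neighbours, counts of peaks change, so joined stretches are given too.

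Starts were raised by 1 for printing. Peaks were called shared at an overlap of at least 1 bp, and the counts over both lists equalled those of bedtools 2.31.1. Peaks less than 10 kb apart were linked into groups. The code was tested on simulated data. Python 3.11.15, numpy 2.4.6, pandas 2.3.3, scipy 1.17.1 and matplotlib 3.10.9 were used. Every peak of the window is named, and Sfi1 is named with up to 3 genes on each side. The region, the groups and the settings were chosen with earlier results of these data known. No test was made, since the region was chosen on these lists and each antibody has 1 library. No genome or annotation of mm9 was used, so sequence and motifs were not analysed here.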

Additional observations from a re-analysis of the deposited data

How the results depend on the processing

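Counts were taken to move beyond 1.5 times, median widths beyond 1 SD of the members' widths and the common share of bases beyond 5 percentage points. By these limits 12 of 41 alternative values moved. The shared percentage ran from 22.2 to 77.8% for HA and from 28.6 to 71.4% for Flag over the alternatives. The intervals given above cover counting error and do not measure this spread. Requiring 50% of both peaks left 2 of 9 HA and 2 of 7 Flag members with a partner (69.7% and 52.0% of the whole lists), and allowing gaps of up to 1 kb gave 7 HA members one (74.1% of the whole list). Keeping the first 50% of lines left 4 HA and 3 Flag members, of which 1 and 1 were shared. The shared percentage of all peaks under this setting is not given. The setting also removed partners past the middle of their list, as at HA line 1511 and Flag line 3387. These 2 counts therefore cannot be read as lower agreement of the region. Joining peaks under 1 kb apart gave 5 HA stretches with a median of 2616 bp. Linking at 5 kb cut the fullest group of the region to 5 HA and 3 Flag peaks, while 20 kb kept 9 and 7. At 5 kb the region was not first for Flag, since a group of 5.8 kb on chromosome 3 holds 4 Flag peaks. Within the approximate span of Sfi1, 34.6% of covered bases were common to both lists, against 26.7% in the whole window. Keeping the wider 50% of each list, or only the closely grouped run, changed no value, because all 16 members are in each. A window 50 kb longer changed none either, since the next peaks start at 3237361 in HA and 3237314 in Flag. These settings could not move a value, yet they count among the 41. No paired analysis was possible because there is a single library for either antibody, and leaving out a replicate was not possible for the same reason. Read depth is unknown, so signal under the authors' threshold cannot be limited.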
